A study of Homo sapiens with 9 samples.

Results

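A probe set of an exon array is a small group of oligonucleotide probes that reads one stretch of transcript, and most annotated probe sets belong to 1 gene. Described here are the probe sets whose symbol field in the platform annotation names 2 or more different genes. The field named several symbols for 14898 probe sets. After old symbols were replaced by current ones, 579 of these named only 1 gene, which left 14319 members of the 1384231 probe sets on the array (1.03%). The members carried 1821 different combinations of symbols, called symbol sets below, of up to 20 genes each. Another 355179 probe sets named 1 gene and served as the comparison, and 1014733 carried no symbol. The annotation alone chose the members, and no measured value entered that choice.

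Genes share a probe set in several ways. Recent duplications leave paralogs whose exons are nearly identical, so the same probe can bind transcripts of either copy. Processed pseudogenes, copied back into the genome from a spliced RNA, match the exons of their parent gene. Small nucleolar RNAs (snoRNAs) lie inside introns of host genes, and read-through transcripts join neighbouring genes. In each case the value is a sum over all RNA that binds the probes, so a shared probe set does not say which of its genes supplied the signal, and fewer cells or less RNA per cell cannot be told apart either.

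RNA came from Flip-In-293, an established human kidney-derived line (from HEK293) that carries a site for targeted insertion of genes. Cells were infected with a lentivirus carrying a non-silencing hairpin (control), a CPSF3 hairpin or an RBFOX2 hairpin, grown for 10 days, and measured on 3 arrays a group. CPSF3 is the endonuclease of the complex that cuts pre-mRNA before polyadenylation and also cuts the 3′ end of replication-dependent histone transcripts, and RBFOX2 is a splicing regulator. The sample titles call the replicates biological and the design text calls them technical, so the p-values may measure technical spread only. Every group carries a lentiviral hairpin, and no uninfected cells were included.

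Upstream sequences of genes that share probe sets are printed first, to show how alike the copies are outside their transcripts, as the 120 bases before the RefSeq start site (GRCh38.p14, read 5′ to 3′ on the gene's strand). They are regulatory sequence, not the probes, and were chosen from families whose values are described below. Of 2341 current genes named by members, 1367 were in the promoter table. Where a gene had several entries, the one most like its relatives was taken. Capitals mark a TATAAA box (letters TATAAA) or a CCAAT box (letters CCAAT), searched on both strands. Over 27305 genes, 6.01% held TATAAA and 21.2% held CCAAT in the same window.
H2AC18, chr1:149842751-149842870, minus strand: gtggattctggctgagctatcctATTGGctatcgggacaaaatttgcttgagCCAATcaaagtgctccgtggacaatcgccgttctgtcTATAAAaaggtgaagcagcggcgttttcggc
H2AC19, chr1:149850941-149851060, plus strand: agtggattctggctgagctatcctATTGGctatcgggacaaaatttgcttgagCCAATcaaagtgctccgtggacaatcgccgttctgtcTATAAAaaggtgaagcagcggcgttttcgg
H4C14, chr1:149832537-149832656, plus strand: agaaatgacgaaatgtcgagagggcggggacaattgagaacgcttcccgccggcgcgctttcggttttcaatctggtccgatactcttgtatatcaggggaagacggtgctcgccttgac
H4C15, chr1:149861160-149861279, minus strand: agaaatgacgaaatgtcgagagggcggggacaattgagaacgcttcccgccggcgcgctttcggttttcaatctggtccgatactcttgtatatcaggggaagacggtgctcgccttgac
H4C2, chr6:26027284-26027403, minus strand: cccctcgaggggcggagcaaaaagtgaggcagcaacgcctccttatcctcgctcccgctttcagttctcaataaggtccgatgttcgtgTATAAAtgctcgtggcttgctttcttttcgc
RANBP2, chr2:108719362-108719481, plus strand: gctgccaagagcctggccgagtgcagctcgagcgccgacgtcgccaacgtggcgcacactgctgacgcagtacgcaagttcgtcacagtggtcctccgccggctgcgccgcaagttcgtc
RGPD5, chr2:109794185-109794304, plus strand: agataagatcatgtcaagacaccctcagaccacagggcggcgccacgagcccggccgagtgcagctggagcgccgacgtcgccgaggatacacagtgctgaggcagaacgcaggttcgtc
RGPD8, chr2:112433646-112433765, minus strand: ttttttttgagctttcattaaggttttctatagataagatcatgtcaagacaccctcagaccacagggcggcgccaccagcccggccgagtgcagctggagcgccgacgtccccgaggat
ZNF33A, chr10:38010555-38010674, plus strand: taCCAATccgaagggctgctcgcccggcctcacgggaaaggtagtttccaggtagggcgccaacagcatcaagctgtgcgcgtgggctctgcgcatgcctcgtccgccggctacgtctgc
ZNF33B, chr10:42638571-42638690, minus strand: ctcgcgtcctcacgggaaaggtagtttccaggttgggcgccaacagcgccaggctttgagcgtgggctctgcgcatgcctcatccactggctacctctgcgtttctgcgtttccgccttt

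Over the 250 bases before the start site, H4C14 and H4C15 were identical at 250 of 250 aligned bases, and H2AC18 and H2AC19 at 249 of 249. H4C14 and H4C2, which share an annotated probe set with 12 other H4 genes, matched at 148 of 190 aligned bases. RGPD5 and RGPD8 matched at 212 of 217 aligned bases, RANBP2 and RGPD5 at 146 of 195, and ZNF33A and ZNF33B at 205 of 228. RGPD1 was less alike. It matched RANBP2 at 33 of 46 aligned bases and RGPD5 at 62 of 80, which are 13.2% and 24.8% of the 250 bases. The duplicated histone pairs were thus identical at every aligned upstream base, whereas H4 genes of different clusters and RANBP2 with RGPD5 were not.

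Values are log2 units of RMA, a summary of background-corrected and normalised probe intensities, and a probe set was tested where its mean over the 9 arrays reached the median of all probe sets, 6.97. This kept 692116 probe sets, of which 10421 were members (72.8% of them, against 75.1% of one-gene probe sets). The median level of each array lay between 6.965 and 6.998 over all probe sets. The line's own markers (10 genes) had a median control level of 9.66, against 5.91 for 5 blood genes, 6.81 for 8 endothelial, 6.88 for 7 keratinocyte and 7.19 for 11 fibroblast genes. The CPSF3 gene itself, measured alone by 21 probe sets, read 9.33, 9.29 and 9.80 in the control arrays and 9.60, 9.27 and 9.27 in those labelled CPSF3 knockdown (change −0.09 ± 0.16 SE, limma adjusted p = 0.755). The label is therefore not borne out by the target, and every direction below rests on it. RBFOX2 read 9.66, 9.54 and 9.38 in controls and 8.95, 8.82 and 9.05 in its own knockdown (−0.58 ± 0.12, limma adjusted p = 0.0654). Control replicate 3 lay nearer the hairpin arrays. Its mean correlation was 0.9428 with the other controls, 0.9511 with the arrays labelled CPSF3 knockdown and 0.958 with those of RBFOX2. It was not the only such array: RBFOX2 replicate 3 had 0.948 with its own group and 0.9677 with the arrays labelled CPSF3 knockdown. RBFOX2 replicate 1 had 0.9408 with its own group. Values without control replicate 3 are given beside the counts of calls and beside some of the named sets.

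The members were brighter than one-gene probe sets: the kept ones had a median level of 9.17 against 8.92. Probe sets of 2 genes had a median of 9.09 (6956 kept), those of 3 to 5 genes 9.24 (2556 kept) and those of 6 or more genes 9.67 (909 kept). By the letters of the symbols, 1035 symbol sets held genes of the same stem such as SMN1 and SMN2, the survival motor neuron pair. A further 133 matched a letter rule for a gene with its pseudogene, 101 held a small RNA and 26 a read-through gene. The UGT1A and protocadherin clusters gave 10 each, and 429 joined unlike names. Each set was put in 1 class by letters alone. CCT6A with its pseudogene CCT6P1 is thus in the same-stem class, and a set of H4 genes is among the unlike names. By position, 537 symbol sets named neighbours within 100 kb, 186 overlapping genes, 665 genes further apart on 1 chromosome and 338 genes on several chromosomes, while 95 could not be placed.

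Against control, 229 of the 10421 kept members passed limma's test in the arrays labelled CPSF3 knockdown (2.2%), 130 higher and 99 lower. Of all kept probe sets 1.6% passed (1.01% higher, 0.588% lower), and of one-gene probe sets 2.77%. When one-gene probe sets were weighted to the members' distribution over 10 bands of mean signal, 2.81% of them passed. In 26.9% of members all 3 arrays of one group lay beyond all 3 of the other (1672 higher, 1133 lower), against 20.3% of all probe sets (10.6% higher, 9.66% lower) and 28.6% of one-gene probe sets at matched signal. The members' median change was 0.027, and that of one-gene probe sets 0.029. By both counts the share of members was slightly below that of one-gene probe sets at matched signal, a difference that was not tested. The count of called members was not stable. It was 661 without control replicate 3, when 40520 of all 692116 probe sets passed. It was 2, 5, 1, 2 and 1 without control replicates 1 or 2 or labelled CPSF3 replicates 1, 2 or 3. In those settings 106 to 279 of all probe sets passed.

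In the RBFOX2 knockdown no member passed limma's test, where 0.000433% of all kept probe sets passed. An unadjusted p under 0.05 was found in 833 members (7.99%), against 9.11% of all probe sets. Of the members, 11.2% had groups that did not overlap, which was also 11.2% over all probe sets and 12.5% over one-gene probe sets at matched signal. Without control replicate 3, 202 members passed, when 18869 of all 692116 probe sets did. Between the 2 hairpin groups no member passed limma's test, and 0 of all probe sets passed. An unadjusted p under 0.05 was found in 810 members (7.77%), against 5.77% of all probe sets. Of the members 14.5% did not overlap, against 11.7% of all probe sets and 16.4% of one-gene probe sets at matched signal.

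**Figure D1:**
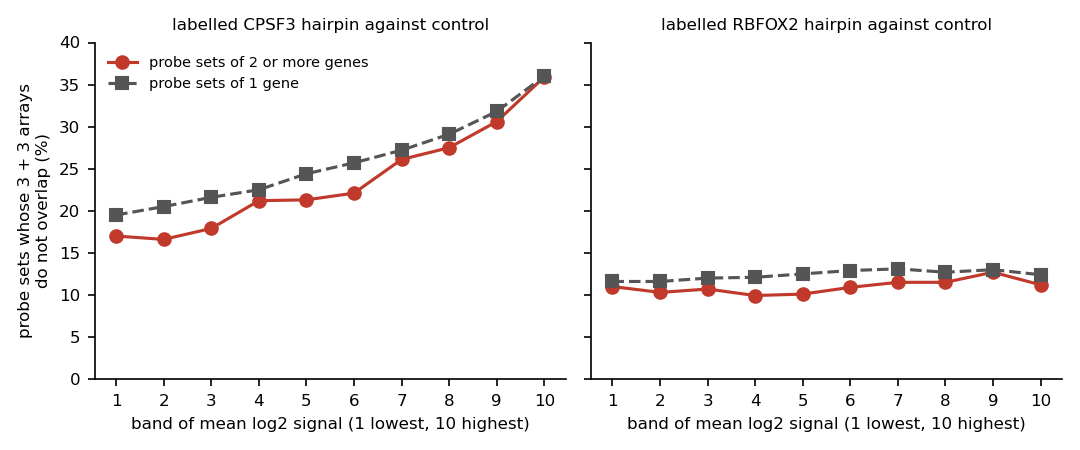
Share of probe sets whose 3 arrays of the hairpin group did not overlap the 3 control arrays, in percent (vertical axis), over 10 bands of mean log2 signal (horizontal axis), for members (circles) and one-gene probe sets (squares). In the arrays labelled CPSF3 knockdown the share of one-gene probe sets ran from 19.5% in the lowest band to 36.0% in the highest, with members at 35.9% in the highest, and in the RBFOX2 knockdown both lines stayed nearly flat.

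The 822 symbol sets with at least 3 kept probe sets were then tested as units, each by its median on every array, together with 16764 genes measured alone. Of these symbol sets, 106 passed limma's test in the arrays labelled CPSF3 knockdown, 61 higher and 45 lower (12.9%). Over all 17586 units 14.1% passed, 9.75% higher and 4.36% lower. The changes of symbol sets ran from −1.37 to +1.05, and their median was 0.00, against 0.01 for the genes measured alone. The balance turned to 20 higher and 33 lower without control replicate 2 and to 16 and 25 without labelled CPSF3 replicate 1, and was 105 and 44 without control replicate 3. The count was 149 without control replicate 3, when 3534 of all 17586 units passed. It lay between 41 and 57 without any one of the other 2 controls or of the 3 labelled CPSF3 arrays. In those settings 969 to 1682 of all units passed. Of the 106, 20 passed under all 17 settings tried, which a set not measured in some setting could not do. GABARAPL1 with GABARAPL3, described next, passed in all 15 alternatives in which it was measured. For 81 of the 106, the median change of the probe sets lay within 0.2 of the change of the set's level, and for 1, the H4 histone set described below, it had the other sign.

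The largest fall was in a set of autophagy genes. GABARAPL1 is an ATG8-family protein of autophagosome membranes and GABARAPL3 its close copy on another chromosome. Their 3 shared probe sets read 9.24, 8.79 and 8.41 in controls and 7.60, 7.09 and 7.65 in the arrays labelled CPSF3 knockdown. The groups did not overlap, and the set fell by 1.37 on the log2 scale (SE 0.21, limma adjusted p = 0.00253). Without control replicate 3 the change was −1.57, and the change in the RBFOX2 knockdown, −0.71 with all arrays (limma adjusted p = 0.174), was −0.92 and passed (0.0134). GABARAPL1 measured alone changed by −0.87 ± 0.19 (limma adjusted p = 0.011), and GABARAPL3 alone by −0.20 ± 0.14 (limma adjusted p = 0.381).

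SLC2A3 encodes the glucose transporter GLUT3 and SLC2A14 its duplicate neighbour GLUT14. Their 12 shared probe sets read 10.20, 10.05 and 10.47 in controls, 9.08, 9.29 and 9.20 in the arrays labelled CPSF3 knockdown, and 9.20, 9.65 and 9.32 in the RBFOX2 knockdown. Both hairpin groups lay wholly below the controls. The log2 change was −1.05 ± 0.14 (limma adjusted p = 0.00143) in the first and −0.85 ± 0.14 (limma adjusted p = 0.0409) in the second. It was the only symbol set that passed in the RBFOX2 knockdown (background 0.125%). That call was kept in only 8 of 16 alternative settings, with a limma adjusted p of up to 0.227. Of its 12 probe sets, 12 lay wholly below controls in the arrays labelled CPSF3 knockdown, where 11 passed singly, and 11 in the RBFOX2 knockdown. Over all probe sets 9.66% and 6.05% lay wholly below, and 0.588% passed lower in the labelled CPSF3 arrays. Measured alone, SLC2A3 changed by −1.01 ± 0.14 and SLC2A14 by −0.80 ± 0.11 in the arrays labelled CPSF3 knockdown, and both passed (limma adjusted p = 0.00134 and 0.00158). The shared and the single probe sets of this pair thus all fell.

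Of 6 MHC symbol sets, 5 fell (background 4.36% lower), with a median of −0.53 over the 6 against 0.008 over all units. MHC proteins present peptides to T cells, and MICA, ULBP2, RAET1G and RAET1L are stress ligands for the NKG2D receptor of natural killer cells. The 7 probe sets of HLA-B and MICA read 11.49, 11.42 and 11.33 in controls and 10.45, 10.84 and 10.20 in the arrays labelled CPSF3 knockdown (−0.91 ± 0.16, limma adjusted p = 0.00453). The set of HLA-B, HLA-C and MICA changed by −0.54 ± 0.12 and that of HLA-B and HLA-C by −0.44 ± 0.12 (limma adjusted p = 0.011 and 0.0279). HLA-DOB, an MHC class II chain, and TAP2, a subunit of the peptide transporter, shared 4 probe sets that changed by −0.53. The 5 probe sets of HLA-DQA1 and HLA-DQA2 did not pass (−0.23 ± 0.12, limma adjusted p = 0.247). A 23-probe-set group naming the HLA-DRB genes together with RNASE2 and ZNF749 changed by −0.76 ± 0.14 (limma adjusted p = 0.00553).

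The NKG2D ligand sets were grouped after their values were seen and overlap the MHC sets in 2 of 5 cases. They fell in 5 of 5 cases (background 4.36% lower), with a median of −0.75. RAET1L and ULBP2 shared 4 probe sets that read 9.10, 9.14 and 9.11 in controls and 8.01, 8.61 and 8.20 in the arrays labelled CPSF3 knockdown (−0.85 ± 0.14, limma adjusted p = 0.00325). In the RBFOX2 knockdown they read 8.69, 8.77 and 8.63, also below every control, but did not pass (−0.42 ± 0.14, limma adjusted p = 0.213). ULBP2 alone changed by −1.22 ± 0.15 (limma adjusted p = 0.000786), RAET1L alone by −0.63 ± 0.14 (0.0119) and RAET1G alone by −0.22 ± 0.11 (0.202), and differences between the ligands were not tested.

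Of 88 symbol sets in the class of a gene with its pseudogene, 4 rose and 4 fell (background 9.75% higher, 4.36% lower). Their median change was −0.01. The class does not hold every such pair: CCT6A with CCT6P1, described below, is outside it. FKBP9, a peptidyl-prolyl isomerase of the endoplasmic reticulum, and its pseudogene FKBP9P1 shared 12 probe sets, all 12 lower without overlap (9.66% of all probe sets). They read 9.80, 9.66 and 9.52 in controls and 8.93, 9.06 and 8.86 in the arrays labelled CPSF3 knockdown (−0.71 ± 0.13, limma adjusted p = 0.00546), while FKBP9 alone changed by −0.42 ± 0.14 and did not pass (0.0637). TMSB4X, the actin-binding thymosin beta 4, shared 3 probe sets with a pseudogene, and the level of the set changed by −0.57 ± 0.14 (limma adjusted p = 0.0157). The single changes of these 3 ran from −1.32 to −0.45, with a median of −1.05. ISCA1 with ISCA1P1, described further on, was among the pairs that rose. The USP17 deubiquitinase family gave 28 shared probe sets that changed together by −0.70 ± 0.17 (limma adjusted p = 0.0163). Of the 28, 25 were lower without overlap, against 9.66% of all probe sets. Of 6 USP symbol sets 3 passed, all lower (background 4.36% lower).

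The largest rise was in a set of overlapping genes. ALG11, a mannosyltransferase of protein glycosylation, and UTP14C, an intronless copy of a ribosome assembly factor, overlap each other. Their 14 probe sets read 8.15, 7.66 and 8.82 in controls and 9.32, 9.31 and 9.15 in the arrays labelled CPSF3 knockdown (+1.05 ± 0.21, limma adjusted p = 0.00701). Control replicate 3 was the highest control, and without it the rise was 1.35 (limma adjusted p = 5.92e-05). With the RBFOX2 hairpin the set read 8.82, 8.84 and 8.99 (+0.67, limma adjusted p = 0.187), and without control replicate 3 it passed (+0.98, 0.00129).

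ZNF33A and ZNF33B, a duplicated pair of zinc-finger genes, shared 8 probe sets that read 9.20, 9.07 and 9.82 in controls and 10.51, 10.36 and 10.32 in the arrays labelled CPSF3 knockdown. The level rose by 1.03 ± 0.16 (limma adjusted p = 0.00253; 1.26 without control replicate 3). The single probe sets had a median change of 0.47 (0.12 to 1.10), and ZNF33A alone changed by +0.53 ± 0.12 and ZNF33B alone by +0.48 ± 0.13. With the RBFOX2 hairpin the set changed by +0.50 (limma adjusted p = 0.204), and without control replicate 3 it passed (+0.73, 0.00227). Of 26 zinc-finger symbol sets 5 rose and 1 fell (background 9.75% higher, 4.36% lower), with a median of +0.27. Another 5 probe sets, shared by ZNF721 and the pseudogene ABCA11P, rose by 0.72 ± 0.15 (limma adjusted p = 0.00862). ZNF721 alone rose by 0.83 ± 0.16 (0.00554) and ABCA11P alone changed by +0.12 ± 0.16 (0.685).

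WASHC2A and WASHC2C encode a subunit of the WASH complex, which builds actin on endosomes. FAM21A is an older name that RefSeq lists for both, and it was kept as given, so it may not be a separate gene. The 77 probe sets that carry all of these symbols read 8.46, 8.28 and 8.58 in controls and 9.38, 8.96 and 9.08 in the arrays labelled CPSF3 knockdown (+0.70 ± 0.14, limma adjusted p = 0.00594). Of the 77, 65 were higher without overlap, against 10.6% of all probe sets. WASHC2C alone rose by 0.66 ± 0.11 (limma adjusted p = 0.00338). The 85 probe sets of the WASH subunit genes themselves (WASHC1, WASH2P, WASH3P and WASH5P) did not pass (−0.17 ± 0.11, limma adjusted p = 0.378). CCT6A, a subunit of the TCP-1 chaperonin, and CCT6P1 shared 3 probe sets that rose by 0.68 ± 0.13 (limma adjusted p = 0.00564). POM121 and POM121C, picked after their values were seen, which encode nuclear pore membrane proteins, shared 29 probe sets that rose by 0.74 ± 0.13 (limma adjusted p = 0.00388).

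**Figure D2:**
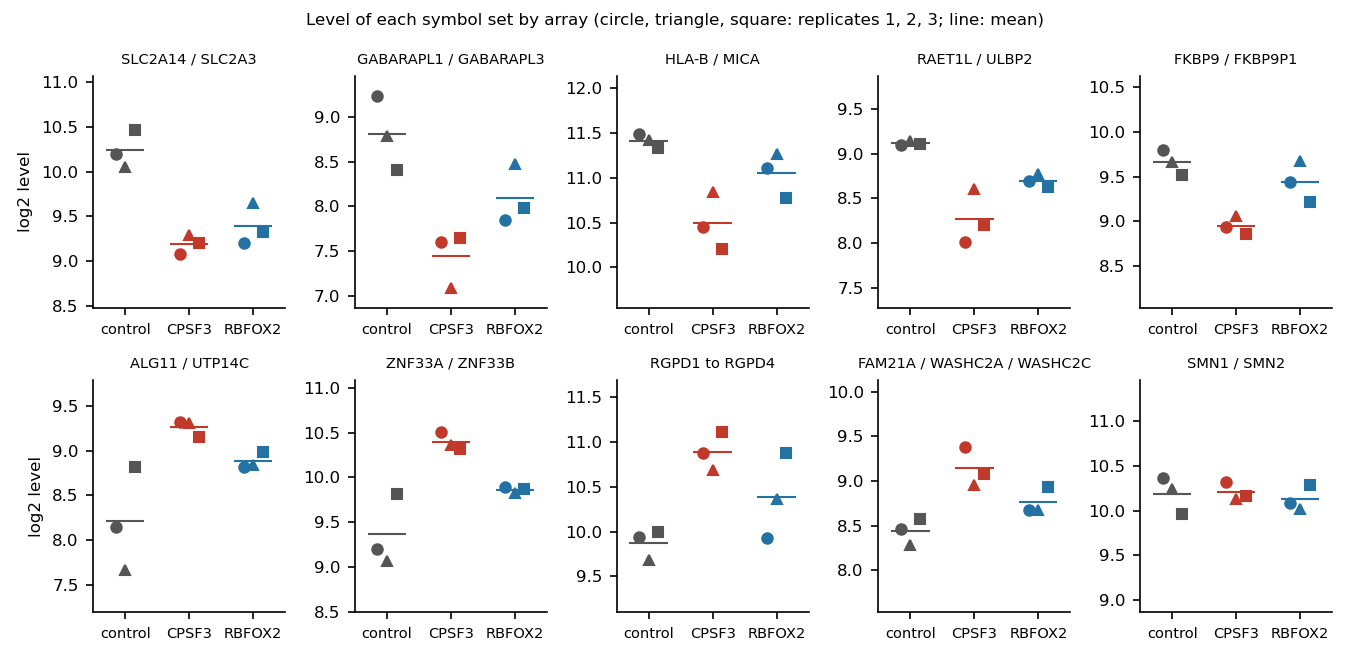
Log2 level (vertical axis) of 10 symbol sets on every array, by group (horizontal axis); symbols are replicates 1, 2 and 3, and lines are means of the 3 arrays. In the first 9 panels the arrays labelled CPSF3 knockdown do not overlap the controls, and SMN1 with SMN2 lies at the same level in all 3 groups.

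RANBP2 is a large nucleoporin of the cytoplasmic pore filaments, and the RGPD genes are truncated copies of it on chromosome 2 that joined part of another gene at their 3′ end. They gave 16 symbol sets that overlap in their genes, grouped here after the values were seen. In the arrays labelled CPSF3 knockdown 8 of the 16 passed higher and none lower (background 9.75% higher, 4.36% lower), with a median of +0.50. The 6 probe sets naming RGPD1 to RGPD4 read 9.94, 9.68 and 10.00 in controls, 10.88, 10.69 and 11.11 in the arrays labelled CPSF3 knockdown and 9.93, 10.36 and 10.88 in the RBFOX2 knockdown. The rise was 1.03 ± 0.20 (limma adjusted p = 0.00589) in the first and 0.52 ± 0.20 in the second, which did not pass (0.266). The 6 probe sets that add RANBP2 to RGPD1, RGPD3, RGPD4, RGPD5 and RGPD6 read 11.14, 10.99 and 11.18 in controls and 11.95, 11.92 and 12.03 in the arrays labelled CPSF3 knockdown (+0.86 ± 0.13, limma adjusted p = 0.00189).

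The same genes measured alone did not move as one. RANBP2 alone rose from 9.23, 8.97 and 9.22 to 10.02, 9.74 and 9.83 (+0.72 ± 0.13, limma adjusted p = 0.00473). RGPD3, RGPD4 and RGPD5 alone had changes of −0.33 ± 0.13, −0.72 ± 0.25 and −0.51 ± 0.21, and RGPD6 of +0.04 ± 0.11, none of which passed (limma adjusted p = 0.114, 0.0673, 0.13 and 0.857). Among sets of 2 copies, RGPD3 with RGPD4 rose by 0.47 ± 0.13 (limma adjusted p = 0.0296), whereas RGPD1 with RGPD2 had a change of −0.04, RGPD5 with RGPD6 of +0.01 and RGPD3 with RGPD5 of −0.13, and none of these passed. Differences between these sets were not tested. Of the genes of this family measured alone, RANBP2 was the one that passed.

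Each kept probe set was also set against the level of a gene it names, taken from at least 5 probe sets of that gene alone. Of 11136 such pairs of members, 1 passed limma's test in the labelled CPSF3 arrays, and it was the single call among all 268985 pairs (0.000372%). It set ps2563458, which names RGPD1 to RGPD6, against RGPD5. The difference was −1.69, −1.67 and −1.52 in controls and +0.15, +0.47 and +0.45 in the arrays labelled CPSF3 knockdown (shift +1.98 ± 0.14, limma adjusted p = 0.0239), with −0.25, −0.25 and +0.11 in the RBFOX2 knockdown. In 394 pairs the probe set named an RGPD gene, and 3 genes served as the reference. The relative value was higher without overlap in 87.3% of these in the labelled CPSF3 arrays, with a median shift of +1.07. Against RGPD5, 192 of 214 pairs were higher and 0 lower, and against RGPD3, 149 of 161 were higher and 0 lower. Measured alone, RGPD5 and RGPD3 had changes of −0.51 and −0.33 in these arrays, and those enter every pair set against them. Pairs set against the remaining gene were few, were mostly not higher and held the 2 lower ones. Over the other 10742 pairs the share higher without overlap was 13.7%. Among all pairs, one-gene probe sets included, that share was 9.06%. Pairs of one family share both probe sets and genes, so they are not independent. In the RBFOX2 knockdown no pair of members passed limma's test (background 0). An unadjusted p under 0.05 was found in 1694 pairs of members (15.2%), against 8.1% of all pairs. Of the pairs naming an RGPD gene, 68.3% were higher without overlap in the RBFOX2 knockdown, with a median shift of +0.79. For the other pairs of members that share was 8.82%. Without control replicate 3, 410 pairs of members passed in the labelled CPSF3 arrays and 89 in the RBFOX2 knockdown. Over all 268985 pairs these counts were 4423 and 950. In the labelled CPSF3 arrays 0 passed without any one of the other 2 controls, the 3 labelled CPSF3 arrays or RBFOX2 replicate 2.

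Replication-dependent histone genes lie in clusters of near-identical copies and make mRNA that ends in a stem-loop without a poly(A) tail. One set of 14 H4 genes held 42 kept probe sets. Its level changed by −0.66 ± 0.17 (limma adjusted p = 0.021; −0.84 without control replicate 3), but its probe sets split. Of the 42, 10 had changes from −1.39 to −1.07, and 8 had changes of 0.5 or more, up to +0.93. The median over the 42 was +0.11. The 10 were ps2357898 to ps2357902 and ps2434105 to ps2434109, consecutive runs with closely similar values, so they may not be 10 separate readings. In controls ps2434108 read 12.16, 11.96 and 11.38, and ps2357899 read 12.11, 11.78 and 11.37. In ps2434109 the values were 11.84, 11.63 and 11.05 in controls, 10.58, 10.03 and 9.90 in the arrays labelled CPSF3 knockdown and 10.04, 10.47 and 9.99 in the RBFOX2 knockdown. In ps2357897 of the same set they were 11.52, 11.40 and 11.92, then 12.48, 12.22 and 12.33, then 12.40, 12.03 and 12.53. Both probe sets separated controls from both hairpin groups, in opposite directions, so 1 level for the set describes neither. The first passed in the labelled CPSF3 arrays (limma adjusted p = 0.0284) and the second did not (0.0724).

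H2AC18 and H2AC19, whose upstream sequences above are identical over all aligned bases, also held probe sets that differed. The probe set ps2357934 read 12.74, 12.81 and 10.82 in controls, 9.66, 9.78 and 9.26 in the arrays labelled CPSF3 knockdown, and 9.46, 10.82 and 9.66 in the RBFOX2 knockdown (−2.56 ± 0.48, limma adjusted p = 0.0301). Control replicate 3 read about 2 log2 units below the other controls, level with the highest RBFOX2 array, and without it the change was −3.21 (limma adjusted p = 0.000954). A neighbouring probe set that adds H2BC21, ps2434086, read 12.87, 12.95 and 10.91, then 9.74, 9.63 and 9.29, and changed by −2.69 ± 0.45 (limma adjusted p = 0.0232), the largest fall among called members. Another probe set of the same 2 genes, ps2357931, was as bright in controls (12.88, 12.62 and 12.39) and read 12.58, 12.53 and 12.26 in the arrays labelled CPSF3 knockdown (−0.17 ± 0.18). As a set, the 11 probe sets of H2AC18 and H2AC19 did not pass (−0.83, limma adjusted p = 0.0818). Of 9 histone symbol sets 1 rose and 1 fell, near the background of 9.75% higher and 4.36% lower. The one that rose was H2AC4 with H2AC8 (+0.59 ± 0.14, limma adjusted p = 0.0127), whose 4 probe sets singly had changes from −0.31 to +0.59 with a median of +0.24.

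**Figure D3:**
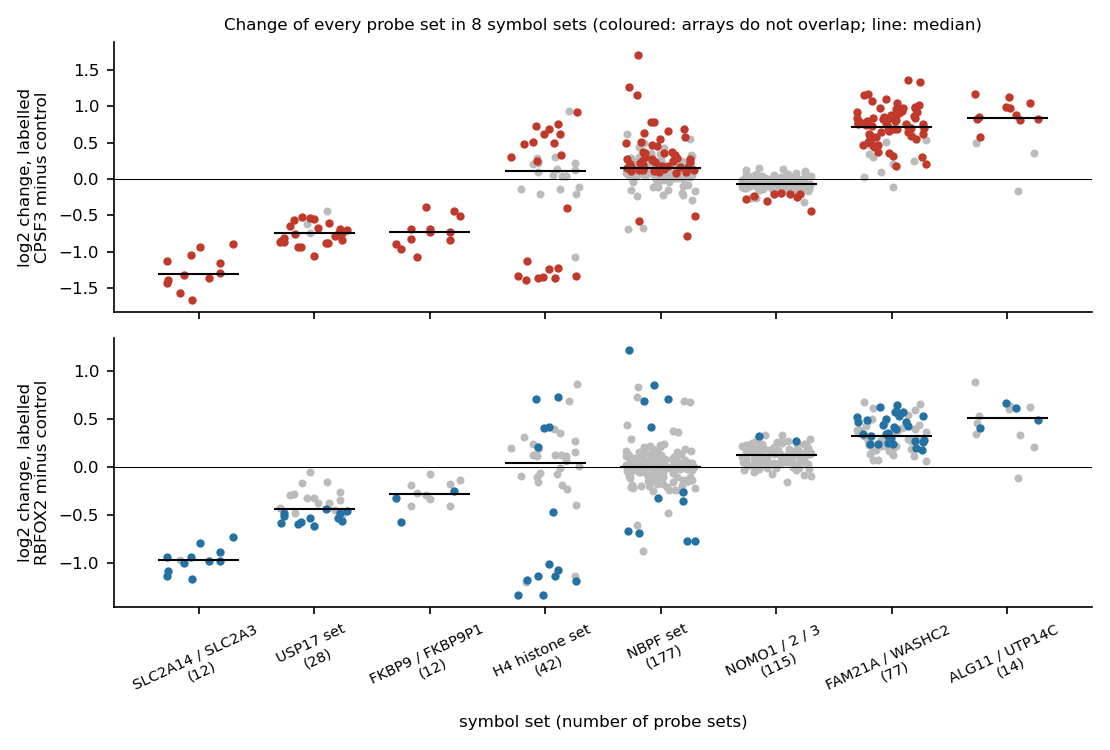
Log2 change against control (vertical axis) of every kept probe set in 8 symbol sets (horizontal axis, with the number of probe sets), for both hairpin groups. Coloured points are probe sets whose 3 + 3 arrays did not overlap, grey points overlapped, and lines are medians. The SLC2A14 and SLC2A3 probe sets all lie below 0, those of FAM21A and WASHC2 nearly all above, and the H4 probe sets form a group near −1.3 apart from the rest.

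Spread within a set was not wider in members than in single genes. Over 588 symbol sets with at least 5 kept probe sets, the median SD of the change among the probe sets of a set was 0.189, against 0.217 over 15048 single genes and 0.215 at the sets' levels. Of these symbol sets 4 spanned 2 log2 units or more (0.68%), against 1.98% of single genes. Most symbol sets thus moved with less internal spread than the H4 set, whose changes spanned more than 2 log2 units.

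Probe sets naming a small RNA were mostly lower. Introns of the hosts release snoRNAs, which guide modification of ribosomal RNA, and several hosts such as SNHG1 and GAS5 encode no known protein, whereas others encode ribosomal proteins. Of 93 kept probe sets in this class, 12 passed lower and none higher in the labelled CPSF3 arrays (background 0.588% lower, 1.01% higher). SNHG1 and TAF1D gave 4 of these calls each. Of the 93, 79 also named a gene that is not a small RNA. Such genes or combinations, 30 in all, are called hosts below and recur, so the probe sets are not independent of each other. WDR74, ATG9B with GSTM2, and NAV2 with UBR2 were named with RNU genes rather than snoRNAs, and host is only a label for them. In 44 of 93 (47.3%) the arrays lay wholly below the controls, against 9.66% of all probe sets, and in 1 wholly above. The median change was −0.52, and 85 of 93 changes were below 0. Under the RBFOX2 hairpin the median was −0.42 and 84 changes were below 0, with none called. Without control replicate 3, 36 of the 93 passed lower in the labelled CPSF3 arrays and 21 in the RBFOX2 knockdown. Of all 692116 probe sets, 40520 and 18869 passed in that setting, both directions together.

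SNHG1 gave 6 of these probe sets. The one it shares with SNORD22 read 10.70, 10.62 and 9.43 in controls, 8.15, 7.96 and 8.25 in the arrays labelled CPSF3 knockdown and 8.29, 9.63 and 8.77 in the RBFOX2 knockdown (−2.13 ± 0.36 in the former, limma adjusted p = 0.0234). The 6 had changes from −2.47 to −1.34, all without overlap, and 4 passed. Control replicate 3 was the lowest control in all 6, and without it the change of the SNORD22 probe set was −2.54 (limma adjusted p = 0.00157). SNHG1 measured alone changed by −1.86 ± 0.33 and passed as well (limma adjusted p = 0.00453).

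TAF1D, a subunit of the RNA polymerase I factor SL1, gave 5 probe sets with snoRNAs, and 4 passed. The one with SNORD5 read 12.40, 12.32 and 11.84 in controls and 10.81, 10.73 and 10.82 in the arrays labelled CPSF3 knockdown (−1.40 ± 0.24, limma adjusted p = 0.0247). TAF1D alone changed by −0.56 ± 0.25 and did not pass (0.156). RPL13A, a ribosomal protein gene, shared a probe set with SNORD34 that read 9.87, 9.87 and 9.25, then 8.60, 8.62 and 8.19 (−1.20 ± 0.23, limma adjusted p = 0.0309), and alone changed by −0.55 ± 0.13 (0.0149). The 3 probe sets of GAS5 had a median change of −1.12, none called, and GAS5 alone changed by −1.12 ± 0.29 (limma adjusted p = 0.02).

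Over 73 small-RNA probe sets whose host was also measured alone, the median change was −0.51 and that of the host −0.49. In 49 of 73 the shared probe set fell further or rose less than its host. Hosts recur among the 73, so these are not independent cases. Other hosts had changes near 0. The 7 probe sets of SNHG11 had a median of +0.04, the 4 of RPL37 of −0.14, and SNHG11 alone changed by −0.10 ± 0.13 (limma adjusted p = 0.684). Only 1 microRNA was named by a kept member, miR-21, which overlaps the end of the VMP1 gene. Its mature form, with bases 2 to 8, the seed, in capitals, is given from RefSeq (GRCh38.p14, chr17:59841273-59841294, plus strand).
hsa-miR-21-5p: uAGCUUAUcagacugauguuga

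The brighter of its 2 probe sets read 11.48, 11.66 and 12.36 in controls and 12.10, 12.09 and 12.32 in the arrays labelled CPSF3 knockdown. Control replicate 3 was above every array labelled CPSF3, and the groups overlapped (+0.33 ± 0.24, limma adjusted p = 0.586). The array read precursor and host RNA, and mature microRNA was not measured as such.

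**Figure D4:**
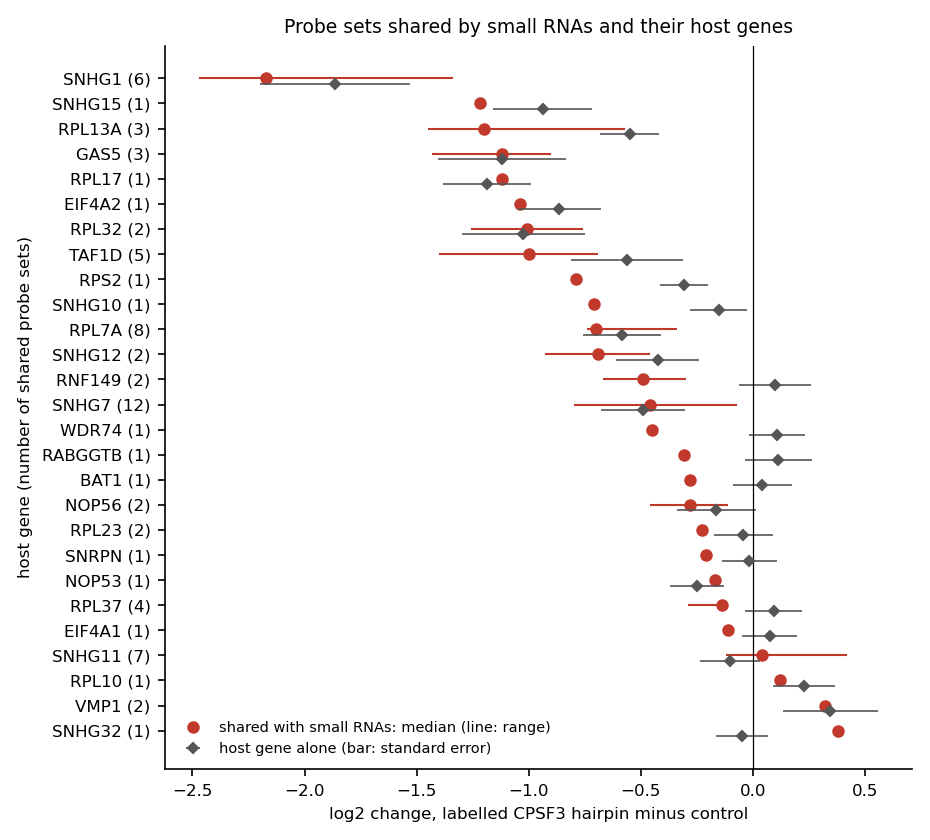
Log2 change in the arrays labelled CPSF3 knockdown against control (horizontal axis) for each host gene (vertical axis, number of shared probe sets in brackets). Host means the gene named beside a small RNA, and WDR74, named with RNU genes, is included. Circles and lines are the median and range of probe sets shared with small RNAs, and diamonds with bars the host measured alone with its standard error. SNHG1 lies lowest at a median of −2.17, and the shared probe sets of SNHG11, RPL10, VMP1 and SNHG32 have medians above 0.

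Of the 8 symbol sets with the most probe sets, FAM21A with WASHC2A and WASHC2C passed and the other 7 did not. NBPF genes, repeats of the Olduvai domain on chromosome 1, gave 177 probe sets that read 10.39, 10.21 and 10.22 in controls and 10.64, 10.36 and 10.45 in the arrays labelled CPSF3 knockdown (+0.21 ± 0.13, limma adjusted p = 0.313). The 3 NOMO genes, which encode a protein of a membrane complex in the endoplasmic reticulum, gave 115 probe sets (−0.03 ± 0.12, limma adjusted p = 0.925). The helicase gene DDX11 with its copies gave 98 (+0.17), a GOLGA8 golgin set 94 (−0.12), a TBC1D3 set 81 (−0.07) and a HERC2 pseudogene set 81 (+0.27). The sign of the NOMO change differed between settings, which gave −0.09 to +0.12. SMN1 and SMN2 shared 33 probe sets that read 10.36, 10.24 and 9.96 in controls and 10.32, 10.13 and 10.16 in the arrays labelled CPSF3 knockdown (+0.02 ± 0.13, limma adjusted p = 0.955). No call was made among 16 cancer-testis sets, 11 olfactory receptor sets, 11 TBC1D sets, 10 cytochrome P450 sets or 6 tubulin sets, where 14.1% of all units passed.

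Single members could rise within a set that did not. In the NBPF set ps2398324 read 8.61, 7.86 and 8.87 in controls and 10.51, 9.85 and 10.10 in the arrays labelled CPSF3 knockdown (+1.71 ± 0.33, limma adjusted p = 0.0332). A probe set of the pregnancy-specific glycoprotein genes PSG1, PSG4 and PSG8, ps3863974, read 5.37, 5.46 and 7.73 in controls, 9.27, 8.86 and 8.86 in the arrays labelled CPSF3 knockdown and 9.14, 9.32 and 9.73 in the RBFOX2 knockdown. Every hairpin array lay above every control, and control replicate 3 above the other controls. Since 2 of the 3 controls lay below the filter level of 6.97, the probe set was kept through the hairpin arrays, and its values are given as a description only. An H3 and H2A probe set, ps2946328, read at most 10.23 in controls and up to 11.73 in the arrays labelled CPSF3 knockdown, with no overlap (+1.43 ± 0.30, limma adjusted p = 0.0409).

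The change of a shared set could be set beside that of its genes in 617 of the 822 symbol sets, which named at least 1 gene measured alone. Across these sets the change in the labelled CPSF3 arrays correlated with the mean change of the named genes at r = 0.48 (Spearman 0.50), and the median absolute gap was 0.16. In the RBFOX2 knockdown r was 0.37 and the median gap 0.14. All of these values come from the same arrays, the changes share their controls, and sets are not independent of each other. By class r was 0.59 over 80 parent and pseudogene sets, 0.52 over 277 same-stem sets, 0.38 over 194 sets of unlike names and 0.41 over 16 read-through sets. Of 1504 genes named by the 822 sets, 753 had no measure of their own, and 205 sets had no gene measured alone, of which 16 passed in the labelled CPSF3 arrays.

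**Figure D5:**
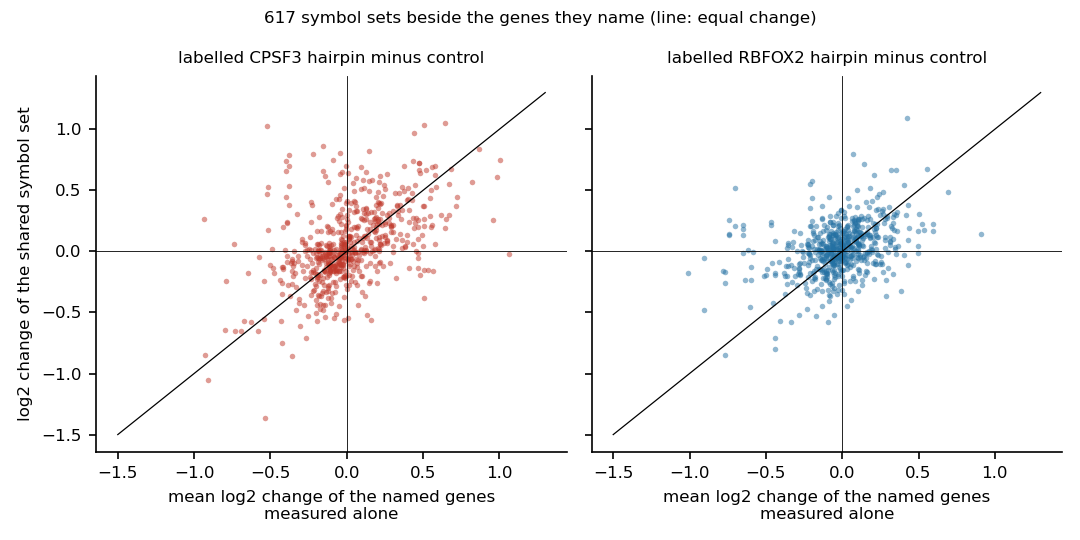
Log2 change of 617 symbol sets (vertical axis) against the mean log2 change of the genes they name, measured alone (horizontal axis), for both hairpin groups; each point is a symbol set and the diagonal marks equal change. Points scatter about the diagonal with r = 0.48 on the left and 0.37 on the right, and some sets at upper left had positive changes while their genes alone had negative ones.

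In several called sets the gene measured alone did not pass. CD68, a macrophage and lysosome marker, and EIF4A1, a helicase of translation initiation, are neighbours that shared 12 probe sets. These changed by −0.44 ± 0.11 (limma adjusted p = 0.0187), and EIF4A1 alone by +0.07 ± 0.12 (0.757). ISCA1, which helps assemble iron-sulfur clusters, and ISCA1P1 shared 11 probe sets that rose by 0.80 ± 0.18 (limma adjusted p = 0.0112), whereas ISCA1 alone changed by −0.22 ± 0.13 (0.303). JUP, the junction protein plakoglobin, and KRT19, a keratin, shared 8 probe sets that changed by −0.61 ± 0.13 (limma adjusted p = 0.00888), and JUP alone by −0.31 ± 0.12 (0.11). Between the 2 hairpin groups no symbol set passed limma's test (background of calls 0.37%). An unadjusted p under 0.05 was found in 99 symbol sets (12%), against 13.1% of all units.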

How the data were processed

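The 9 arrays were Affymetrix Human Exon 1.0 ST arrays. The authors deposited 1 table of log2 values per probe set, which the submitters' processing notes connect with Affymetrix Power Tools, RMA and build hg18; no scanner intensities were used here. Old symbols were updated through RefSeq names (GRCh38.p14). Of 2372 symbols of members, 1888 were current, 436 were synonyms and 48 were kept as given. The members and lists were chosen with earlier results of these data known. Limma 3.58.1 (R 4.3.3; lmFit and eBayes, 3 group means, no covariate) was fitted at 3 levels: probe sets with a mean of at least 6.97, symbol sets (the median of at least 3 kept probe sets) and probe sets minus a named gene's level (the median of at least 5). P-values were 2-sided and adjusted by Benjamini-Hochberg over every feature of a level, with calls at 0.05. The fit was tested on simulated data. An exact permutation test of 3 against 3 arrays cannot go below 0.10. Matching weighted one-gene probe sets by the members' share of 10 signal bands. Aligned bases are from a global alignment without end penalties (Biopython 1.88). Symbol sets were named as the 8 with the most probe sets, the largest called rises and falls without overlap, and up to 2 each way per class and family; probe sets likewise. Other sets of the MHC, NKG2D ligand, RANBP2, USP17 and POM121 families, and single probe sets of the histone and small RNA genes, were named after their values were seen. Members of identical or shared sequence can cross-hybridise, so a copy's own change is uncertain. The number of arrays limits the precision. Alternatives were other filters, quantile normalisation, array weights, a variance trend, a replicate block, only the compared groups, and leaving out each array.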

Additional observations from a re-analysis of the deposited data

How the results depend on the processing

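Over 16 alternatives no called value changed sign, but values near 0 did (SMN1 with SMN2 from −0.13 to +0.10), and counts of calls moved widely. Calls over all probe sets in the labelled CPSF3 arrays (11088) ranged from 74 with no filter to 40520 without control replicate 3. Called members in the labelled CPSF3 arrays (229) became 1 with no filter on dim probe sets, 514 with the filter at the upper quartile, 559 with a robust variance trend and 727 with array weights. In the RBFOX2 knockdown (0) they became 2, 2 and 1 under the upper-quartile filter, the trend and array weights. Called symbol sets in the labelled CPSF3 arrays (106) became 223 with array weights. In the RBFOX2 knockdown (1) they became 55 with array weights, 3 with the replicate block and 0 with only the compared groups. Between the hairpins (0) they became 1 with the upper-quartile filter, 1 with quantile normalisation, 22 with array weights and 4 with only the compared groups. Called pairs in the labelled CPSF3 arrays (1) became 0 with no filter, 0 with the replicate block, 0 with only the compared groups, 8 with the upper-quartile filter, 227 with the trend and 381 with array weights.

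Leaving out 1 array gave 1 to 661 called members in the labelled CPSF3 arrays and 0 to 202 in the RBFOX2 knockdown, 41 to 149, 0 to 49 and 0 to 4 symbol sets in the 3 comparisons, and 0 to 410 and 0 to 89 pairs. The highest of each came without control replicate 3. Replicate numbers did not pair the samples: correlations of deviations were over 0.1 in 3 of 9 same-numbered pairs and 6 of 18 others. With the replicate block, 255 members and 120 symbol sets passed in the labelled CPSF3 arrays. Of the values of single named sets and probe sets under alternatives, 1042 kept their side of the threshold, 189 lost the call and 30 gained it. The cause of these shifts was not tested. With 3 arrays a group and no scanner values, signal over background could not be separated from low expression.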
